A study of Mus musculus with 9 samples.

Results

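Myc and the ribosome biogenesis genes form a set of 38 listed genes: Myc itself, genes widely used as its transcriptional targets, and factors that transcribe, modify, cleave and assemble ribosomal RNA. A gene was measured where the symbol column of the deposited annotation named it alone, and its brightest probe set, by mean log2 intensity over the arrays, stands for it. This found 37 of the 38 genes among 20680 genes in all. Ptma, the prothymosin alpha gene, had no such probe set and is not analysed here. All 37 lay above the 40th percentile of mean log2 intensity over all genes.

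The samples were leukaemic bone marrow cells of C57B/6 secondary recipient mice, 5 Ezh2-null and 4 wild-type (WT) with 1 array each. They model acute myeloid leukaemia caused by the MLL-AF9 fusion. Both groups carried a retrovirus with the MLL-AF9 fusion and GFP, both came from recipients given pIpC 2 to 3 weeks after transplantation to switch on Cre, and both were sorted for GFP and for YFP, the mark of Cre activity. Recipients had been irradiated with 600 cGy and injected with 100000 cells. The labels call the samples biological replicates without naming the primary leukaemia or the mouse behind each, so the p-values measure the spread between these samples, some of which may share an origin. No source used here gives the promoter that drove Cre or the age of the mice. In such sorted bulk samples, fewer cells of a type and less RNA per cell cannot be told apart.

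Myc is a transcription factor that binds E-box sequences together with its partner Max and raises the output of genes for growth, among them much of the ribosome production line. Ribosomal RNA is transcribed in the nucleolus by RNA polymerase I, modified by small nucleolar ribonucleoproteins (snoRNPs) of the box C/D and box H/ACA classes, and cleaved and folded into small and large subunits by many assembly factors. Leukaemias driven by MLL fusions are known to depend on Myc.

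WT replicates 3 and 4 stood apart from the other 7 arrays. On the first principal component of all genes, which held 36.7% of the variance, Ezh2-null arrays lay between -29.54 and -9.83, WT replicates 1 and 2 at -0.67 and -2.33, and WT replicates 3 and 4 at 58.94 and 51.83. The Gapdh control probe sets, read as log2 of the 3' over the 5' end, a measure of RNA integrity, gave 1.56 to 1.65 for Ezh2-null arrays. The same measure gave 1.80 and 1.69 for WT replicates 1 and 2, with 1.47 and 1.55 for the other WT arrays. Its part in the results was not tested. Of the markers of myeloid leukaemia cells, 7 of 8 were measured, and their summed linear intensity was 18501 to 28319 in Ezh2-null and 22653 to 32220 in WT arrays. Such a sum follows the brightest genes, and the single markers split. Of these markers 3 had a negative log2 difference, the furthest Cebpa at -1.26 (limma adjusted p = 0.122). The other 4 had a positive one, up to 0.34 for Kit. Ezh2 has 1 probe set, and no source used here says whether that lies in the deleted part of the gene. It read 9.21 ± 0.18 in Ezh2-null (log2, SD, n = 5) and 10.50 ± 0.49 in WT arrays (SD, n = 4), with no overlap and an adjusted p of 0.0373 in limma, which was 0.149 without WT replicates 3 and 4. Levels here are log2 of the deposited RMA intensity, and each difference is the Ezh2-null mean minus the WT mean on that scale.

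Transcripts of ribosome production were lower on average in Ezh2-null than in WT leukaemias, while Myc itself hardly differed over all 9 arrays. That value of Myc depended on single WT arrays, as given below. Of the 37 genes 36 had a negative log2 difference (Ezh2-null minus WT), against 46.7% of all genes, and the median was -0.53, against 0.02 over all genes. No single gene of the set passed: limma at a Benjamini-Hochberg adjusted p under 0.05 called 0 of the 37, where 0.498% of all genes were called, and the smallest adjusted p was 0.0763, that of Nhp2. At an adjusted p under 0.1, 3 of the 37 were lower (Nhp2, Wdr43 and Nop2), where 1.21% of all genes were. At an unadjusted p under 0.05, 21 of the 37 were lower and 0 higher in Ezh2-null arrays, where 8.97% of all genes were lower and 8.2% higher. In 9 genes every Ezh2-null array lay below every WT array, as did 2.87% of all genes. The 37 differences ran from -0.94 for Utp20 to 0.02 for Odc1.

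Much of this difference rested on WT replicates 3 and 4. In 32 of the 37 genes these were the highest arrays of all 9, as in 13.7% of all genes. Without them the median was -0.19, 28 of the 37 genes had a negative difference where 53.5% of all genes did, and limma called 0 (smallest adjusted p 0.313), where it called 0.295% of all genes, with 5 lower and 1 higher at an unadjusted p under 0.05, where 6.26% of all genes were lower and 5.64% higher. The mean over the 37 genes of the log2 deviation from each gene's mean was -0.25, -0.33, -0.11, -0.29 and -0.13 on Ezh2-null replicates 1 to 5, and -0.10, 0.02, 0.64 and 0.54 on WT replicates 1 to 4. All 5 Ezh2-null arrays lay below all 4 WT arrays on this scale, but the gap to WT replicate 1 was small.

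**Figure D1:**
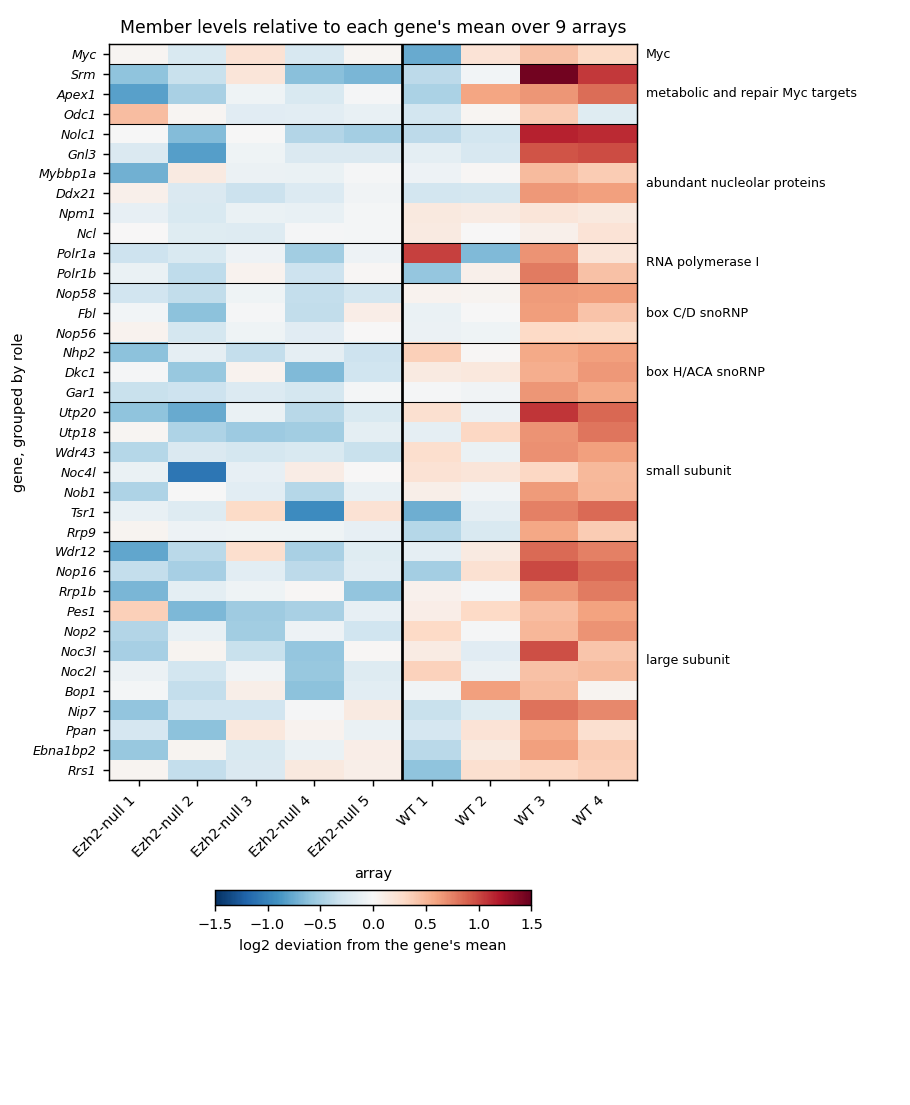
Log2 deviation of each of the 37 genes (rows, grouped by role) from its own mean over the 9 arrays (columns, Ezh2-null left of the black line, WT right), red above and blue below the mean. WT replicates 3 and 4 are red in nearly every row, with a mean deviation of 0.64 and 0.54, while WT replicates 1 and 2, at -0.10 and 0.02, are close to the Ezh2-null arrays.

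Myc, the gene the set is named for, read 11.01, 10.75, 11.19, 10.74 and 11.004 in Ezh2-null arrays (log2), against 10.23, 11.19, 11.42 and 11.27 in WT arrays. The Ezh2-null values fell inside the WT range, whose low end was set by WT replicate 1. The log2 difference was -0.09 (SE 0.23, limma adjusted p = 0.882). By exact permutation of the genotypes over all 126 splits, two-sided, p was 0.825. The difference lay further from 0, at -0.35, without the low WT replicate 1. Its sign turned without WT replicate 3, to 0.05, and without WT replicates 3 and 4, to 0.23 (limma adjusted p = 0.957 and 0.757). Only Odc1 had a higher difference than Myc among the 37 genes.

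The metabolic and repair genes did not lie together. Srm, the spermidine synthase gene, read 8.01, 8.28, 8.80, 7.98 and 7.93 in Ezh2-null arrays, against 8.22, 8.57, 10.05 and 9.67 in WT arrays. The groups overlapped on WT replicates 1 and 2, and the difference of -0.93 (SE 0.36, limma adjusted p = 0.234) was -0.19 without WT replicates 3 and 4. Apex1, which encodes the main apurinic site endonuclease of base excision repair, read 10.17, 10.50, 10.92, 10.76 and 10.97 in Ezh2-null arrays, against 10.51, 11.57, 11.65 and 11.82 in WT arrays. Here WT replicate 2 was high as well, WT replicate 1 lay among the Ezh2-null arrays, and the difference was -0.73 (SE 0.27, limma adjusted p = 0.212). Odc1, the gene of ornithine decarboxylase, which makes the putrescine that Srm uses, read 10.22, 9.79, 9.59, 9.60 and 9.64 in Ezh2-null arrays, against 9.48, 9.79, 10.13 and 9.58 in WT arrays. It was the only one of the 37 with a positive difference, at 0.02 (SE 0.17, limma adjusted p = 0.964), a sign that turned to -0.02 in the batch-adjusted table and to values down to -0.09 in other alternatives.

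Among the abundant nucleolar proteins, Npm1 and Ncl had small differences with little spread within a genotype. Npm1, a nucleolar chaperone gene that is often mutated in human acute myeloid leukaemia, read 13.88, 13.78, 13.90, 13.90 and 13.97 in Ezh2-null arrays, against 14.15, 14.13, 14.18 and 14.14 in WT arrays. The WT arrays had an SD of 0.02 and all lay above every Ezh2-null array, and the difference of -0.27 (SE 0.09, limma adjusted p = 0.184) was nearly the same, -0.25, without WT replicates 3 and 4. Ncl, the gene of the RNA-binding protein nucleolin, read 13.59, 13.40, 13.39, 13.57 and 13.56 in Ezh2-null arrays, against 13.72, 13.59, 13.66 and 13.79 in WT arrays, so that the groups nearly touched. Its difference was -0.19 (SE 0.10, limma adjusted p = 0.366), and -0.15 without WT replicates 3 and 4. The other probe sets of Ncl, all dimmer, stood at -0.29, -0.27 and -0.30.

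Nolc1 and Gnl3 showed the other pattern. Nolc1, a chaperone of snoRNPs in the nucleolus, read 10.34, 9.70, 10.34, 9.92 and 9.84 in Ezh2-null arrays, against 9.95, 10.07, 11.50 and 11.47 in WT arrays. Gnl3, the gene of the nucleolar GTPase nucleostemin, read 9.30, 8.68, 9.45, 9.29 and 9.30 in Ezh2-null arrays, against 9.36, 9.27, 10.45 and 10.48 in WT arrays. In both genes, WT replicates 1 and 2 lay among the Ezh2-null arrays, and the differences of -0.72 (SE 0.34) and -0.69 (SE 0.29) were 0.02 and -0.12 without WT replicates 3 and 4. Mybbp1a, a Myb-binding nucleolar protein gene, and Ddx21, an RNA helicase gene, had differences of -0.36 and -0.33. Mybbp1a stood at -0.22 without its low Ezh2-null replicate 1. Ddx21 stood at 0.13 without WT replicates 3 and 4, and its dimmer probe set at -0.65.

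The catalytic subunits of RNA polymerase I were uneven among WT arrays on the probe sets used. Polr1a, the largest subunit gene, read 9.35, 9.43, 9.58, 9.14 and 9.58 in Ezh2-null arrays, against 10.69, 8.997, 10.33 and 9.84 in WT arrays, where replicate 1 was highest and replicate 2 the lowest of all 9 arrays. Its difference was -0.55 (SE 0.29, limma adjusted p = 0.364), with -0.31 when WT replicate 1 was left out and -0.87 when WT replicate 2 was. Dimmer probe sets of Polr1a stood nearer to 0 with a smaller SE, at -0.30 (SE 0.14) and -0.25 (SE 0.14). Those at -0.06 and -0.11 were very dim, with Ezh2-null means of 3.46 and 3.32 (log2). Polr1b, the second largest subunit gene, had a difference of -0.32 (SE 0.24, limma adjusted p = 0.526), and 0.11 without WT replicates 3 and 4.

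Genes of both snoRNP classes had negative differences. The H/ACA complex converts uridine to pseudouridine and also belongs to telomerase. All 3 of its genes in the set were lower at an unadjusted p under 0.05, where 8.97% of all genes were. The median of the 3 was -0.67, and -0.44 without WT replicates 3 and 4. Nop10, a further H/ACA gene, is counted with the snoRNP assembly genes below. It hardly differed, at -0.11 (limma adjusted p = 0.853), and stood at 0.36 without WT replicates 3 and 4. Nhp2, a core protein gene, read 10.85, 11.32, 11.11, 11.33 and 11.15 in Ezh2-null arrays, against 11.82, 11.48, 12.04 and 12.08 in WT arrays. No WT array came down to the Ezh2-null range, and the difference of -0.70 (SE 0.16), or 61.6% of the WT level, had the smallest adjusted p of the set, 0.0763 in limma. Dkc1, the pseudouridine synthase gene mutated in human dyskeratosis congenita, read 10.998, 10.44, 11.07, 10.35 and 10.72 in Ezh2-null arrays, against 11.14, 11.17, 11.56 and 11.67 in WT arrays. It too did not overlap, although by a narrow margin, with a difference of -0.67 (SE 0.19, limma adjusted p = 0.127). Gar1, another core protein gene, had a difference of -0.52 (limma adjusted p = 0.174), and -0.19 without WT replicates 3 and 4.

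The box C/D complex methylates ribose in ribosomal RNA, and its genes differed between probe sets. Nop58, a scaffold protein gene, read 11.40, 11.32, 11.62, 11.33 and 11.41 in Ezh2-null arrays, against 11.74, 11.73, 12.32 and 12.31 in WT arrays. Its groups did not overlap, and the difference was -0.61 (SE 0.16, limma adjusted p = 0.110), and -0.31 without WT replicates 3 and 4. Its paralogue and partner Nop56 stood at -0.20 (SE 0.13, limma adjusted p = 0.465), and the methyltransferase gene Fbl, which encodes fibrillarin, at -0.43 (SE 0.20, limma adjusted p = 0.302). Their differences without WT replicates 3 and 4 were -0.01 and -0.14. The dimmer probe sets of both stood further from 0, at -0.73 for Nop56 and -0.77 for Fbl, beyond the value of Nop58, whose only probe set is given above (limma adjusted p over all probe sets = 0.121 for Nop56 and 0.0902 for Fbl).

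Small subunit factors included the furthest difference of the set. At an unadjusted p under 0.05, 5 of the 7 genes were lower, where 8.97% of all genes were. Utp20, a gene of the small subunit processome, read 8.85, 8.70, 9.35, 9.04 and 9.22 in Ezh2-null arrays, against 9.70, 9.36, 10.53 and 10.31 in WT arrays. The groups met without overlap at Ezh2-null replicate 3 and WT replicate 2, and the difference of -0.94 (SE 0.24, limma adjusted p = 0.105), or 52.1% of the WT level, was -0.50 without WT replicates 3 and 4. Utp18, of the same complex, read 8.63, 8.14, 8.05, 8.07 and 8.46 in Ezh2-null arrays, against 8.46, 8.91, 9.27 and 9.40 in WT arrays. It overlapped only through Ezh2-null replicate 1 and WT replicate 1, and its difference was -0.74 (SE 0.21, limma adjusted p = 0.125).

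Wdr43, a further processome gene, had tightly grouped Ezh2-null values of 10.75, 10.96, 10.92, 10.96 and 10.85, against 11.43, 11.08, 11.86 and 11.80 in WT arrays. Its groups did not overlap, and the difference of -0.66 (SE 0.16) had an adjusted p of 0.0985 in limma. Noc4l, a nucleolar assembly gene, read 10.90, 9.92, 10.88, 11.11 and 11.01 in Ezh2-null arrays, against 11.21, 11.18, 11.31 and 11.49 in WT arrays, with Ezh2-null replicate 2 far below the rest and a difference of -0.54 (SE 0.23, limma adjusted p = 0.262), which was -0.32 without that array. Nob1, the endonuclease gene of the last cut in the small subunit RNA, had a difference of -0.53 (limma adjusted p = 0.168), and the late assembly gene Tsr1 one of -0.34 (limma adjusted p = 0.661).

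Rrp9, which encodes a protein of the U3 snoRNP, read 8.08, 7.96, 7.97, 7.97 and 7.92 in Ezh2-null arrays, against 7.61, 7.81, 8.62 and 8.42 in WT arrays. The Ezh2-null values lay in a narrow band between the WT pairs, above replicates 1 and 2 and below replicates 3 and 4. Its difference of -0.13 (SE 0.20, limma adjusted p = 0.767) was 0.27 without WT replicates 3 and 4, and that of Tsr1 was 0.28.

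All 12 large subunit factors had negative differences, where 46.7% of all genes did. At an unadjusted p under 0.05, 8 of the 12 were lower, where 8.97% of all genes were. The median of the 12 was -0.57, and -0.28 without WT replicates 3 and 4. Wdr12, Pes1 and Bop1 encode the PeBoW complex, which is needed to process the large subunit RNAs. Wdr12 read 10.29, 10.67, 11.32, 10.58 and 10.89 in Ezh2-null arrays, against 10.94, 11.20, 11.93 and 11.83 in WT arrays. Its groups overlapped through Ezh2-null replicate 3, and the difference was -0.72 (SE 0.25, limma adjusted p = 0.190). Pes1 had a difference of -0.66 (SE 0.21, limma adjusted p = 0.164) and Bop1 one of -0.48 (SE 0.19, limma adjusted p = 0.234). Without WT replicates 3 and 4, Bop1 stood at -0.49, nearly as before, and Pes1 at -0.50.

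Nop16, a large subunit assembly gene, read 7.88, 7.74, 8.07, 7.85 and 8.07 in Ezh2-null arrays, against 7.73, 8.46, 9.22 and 9.09 in WT arrays. WT replicate 1 was the lowest of all 9, so the difference of -0.70 (SE 0.27, limma adjusted p = 0.224) came from the other 3 WT arrays. The other probe set of Nop16 was about as bright and did not show it. Its means were 8.23 in Ezh2-null and 8.17 in WT arrays, against 7.92 and 8.63 on the one used, a difference of 0.05. As the mean of both probe sets, Nop16 stood at -0.32 (limma adjusted p = 0.544). Nop2, the gene of a cytosine methyltransferase of the large subunit RNA, read 8.68, 9.01, 8.60, 9.05 and 8.83 in Ezh2-null arrays, against 9.43, 9.10, 9.62 and 9.79 in WT arrays. Nop2 was the only large subunit gene whose groups did not overlap, with a difference of -0.65 (SE 0.16, limma adjusted p = 0.0985), and -0.43 without WT replicates 3 and 4.

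The other large subunit genes spanned a wide range. Rrp1b, Noc3l and Noc2l had differences of -0.66, -0.61 and -0.53 (limma adjusted p = 0.172, 0.220 and 0.139). Nip7, Ppan, Ebna1bp2 and Rrs1, all genes of nucleolar assembly factors, stood at -0.47, -0.34, -0.33 and -0.14, and without WT replicates 3 and 4 at 0.05, -0.13, -0.02 and 0.12. Of the 25 genes of the whole set with several probe sets, 2 had one of opposite sign to the brightest, Nop16 at 0.05 and Pes1 at 0.05. Of all 75 probe sets of the set 72 were below 0, and limma called 0 of them over all probe sets.

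**Figure D2:**
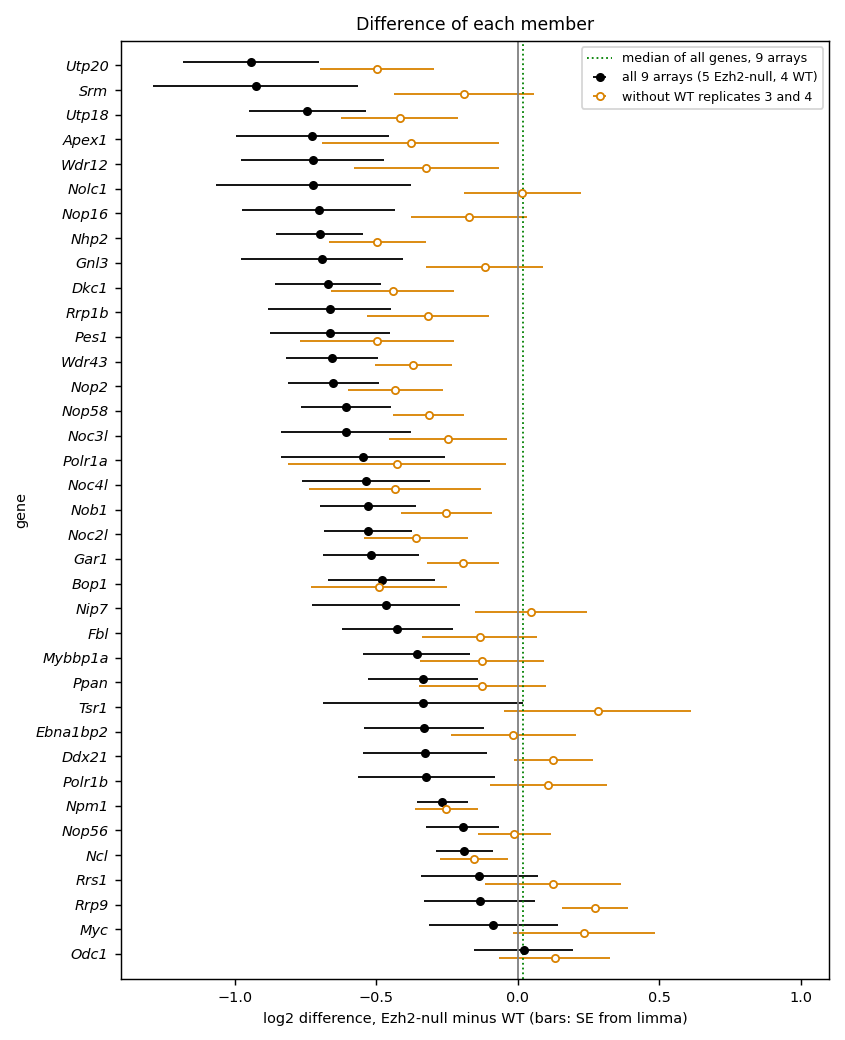
Log2 difference (Ezh2-null minus WT, horizontal axis, bars are the SE from limma) of each of the 37 genes over all 9 arrays (black) and without WT replicates 3 and 4 (open orange), with the median of all genes as a dotted line. The black points run from -0.94 for Utp20 to 0.02 for Odc1 with a median of -0.53, and the open points, with a median of -0.19, lie closer to 0 for most genes, hardly shift for Bop1 and Npm1, and lie further from 0, on the positive side, for Myc, Rrp9 and Odc1.

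**Figure D3:**
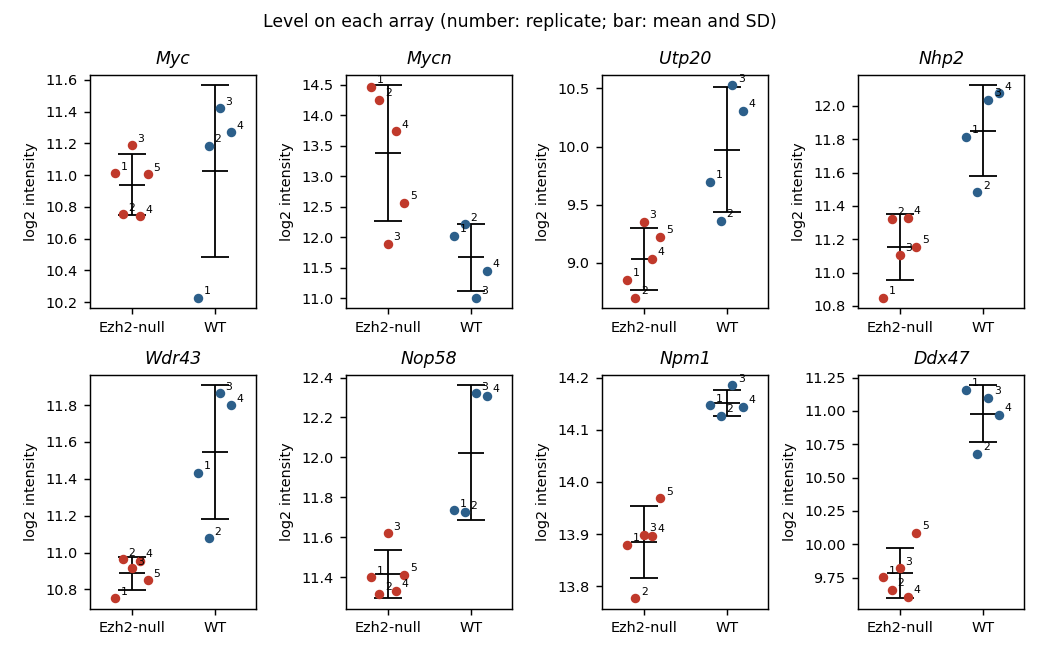
Log2 intensity (vertical axes, each with its own range) of 8 genes on each array, Ezh2-null left and WT right, with replicate numbers and bars for mean and SD (n = 5 and 4). Npm1 and Ddx47 separate the genotypes with even WT values, Utp20, Nhp2, Wdr43 and Nop58 separate them with WT replicates 3 and 4 highest, and Myc and Mycn overlap.

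The promoters of the set were read for the E-box to which Myc and Max bind, CACGTG, a sequence that is its own reverse complement, so that both strands are covered by one search. The RefSeq promoter table (GRCm38.p6, 250 bases before to 50 after each annotated start) held 31 of the 37 genes, and Bop1, Fbl, Myc, Npm1, Rrs1 and Srm were not in it. CACGTG was found for 8 of the 31 genes, or 25.8%, against 10.4% of the 12674 genes of the table that were on the arrays and 8.09% of all its 27025 genes. The related letters CACGCG, read on both strands, were found for 10 of the 31 genes, or 32.3%, against 16.3% of genes on the arrays. Pes1 and Mybbp1a held both CACGTG and CACGCG. The windows of the set were also richer in G and C, with a median of 60.7% against 58.7%, and in CpG, with a median ratio of observed to expected of 0.875 against 0.678, and CACGTG and CACGCG both hold a CpG. Whether base composition accounts for the shares was not tested. A match is a description of these letters and not evidence of binding.

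All 8 promoters with a CACGTG are shown, with the motif in capitals on the gene's strand, 5′ to 3′. They are in order of the log2 difference, which was -0.94 for Utp20, -0.74 for Utp18, -0.73 for Apex1, -0.66 for Pes1, -0.66 for Wdr43, -0.65 for Nop2, -0.36 for Mybbp1a and -0.34 for Tsr1.
Utp20, chr10:88826765-88827064, minus strand: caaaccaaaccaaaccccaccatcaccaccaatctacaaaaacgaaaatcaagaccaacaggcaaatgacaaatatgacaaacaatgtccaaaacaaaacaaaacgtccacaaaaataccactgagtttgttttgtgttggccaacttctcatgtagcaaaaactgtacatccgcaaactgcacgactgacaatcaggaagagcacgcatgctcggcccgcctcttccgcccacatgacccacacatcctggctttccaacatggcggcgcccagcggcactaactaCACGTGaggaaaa
Utp18, chr11:93885717-93886016, minus strand: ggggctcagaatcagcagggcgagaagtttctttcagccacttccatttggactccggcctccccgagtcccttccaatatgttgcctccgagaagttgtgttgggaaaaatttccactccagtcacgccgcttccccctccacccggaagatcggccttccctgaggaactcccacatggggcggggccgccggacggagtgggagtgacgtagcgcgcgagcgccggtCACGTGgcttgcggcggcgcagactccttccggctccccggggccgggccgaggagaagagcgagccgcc
Apex1, chr14:50924699-50924998, plus strand: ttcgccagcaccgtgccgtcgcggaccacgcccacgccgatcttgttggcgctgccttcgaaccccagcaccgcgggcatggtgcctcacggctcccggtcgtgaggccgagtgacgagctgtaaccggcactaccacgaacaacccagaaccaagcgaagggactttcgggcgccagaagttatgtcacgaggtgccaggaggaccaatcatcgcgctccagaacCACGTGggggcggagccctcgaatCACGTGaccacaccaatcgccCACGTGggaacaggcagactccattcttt
Pes1, chr11:3963725-3964024, plus strand: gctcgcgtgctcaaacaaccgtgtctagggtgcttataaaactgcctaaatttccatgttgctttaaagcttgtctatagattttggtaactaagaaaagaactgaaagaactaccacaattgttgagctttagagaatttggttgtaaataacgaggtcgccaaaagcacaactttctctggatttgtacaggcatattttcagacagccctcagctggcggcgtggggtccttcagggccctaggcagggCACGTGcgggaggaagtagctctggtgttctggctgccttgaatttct
Wdr43, chr17:71615965-71616264, plus strand: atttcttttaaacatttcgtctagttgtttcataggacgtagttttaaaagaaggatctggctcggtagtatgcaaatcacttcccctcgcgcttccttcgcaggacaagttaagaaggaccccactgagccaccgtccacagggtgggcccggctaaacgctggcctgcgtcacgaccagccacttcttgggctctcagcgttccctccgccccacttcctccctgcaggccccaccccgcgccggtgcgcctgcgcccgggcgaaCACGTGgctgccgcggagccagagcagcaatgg
Nop2, chr6:125131633-125131932, plus strand: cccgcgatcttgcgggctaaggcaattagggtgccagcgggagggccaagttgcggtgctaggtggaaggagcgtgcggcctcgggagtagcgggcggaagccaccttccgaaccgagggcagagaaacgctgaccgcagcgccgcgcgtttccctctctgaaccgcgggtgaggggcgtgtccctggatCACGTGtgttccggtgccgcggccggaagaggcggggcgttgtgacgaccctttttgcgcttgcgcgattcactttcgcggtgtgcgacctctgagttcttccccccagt
Mybbp1a, chr11:72441077-72441376, plus strand: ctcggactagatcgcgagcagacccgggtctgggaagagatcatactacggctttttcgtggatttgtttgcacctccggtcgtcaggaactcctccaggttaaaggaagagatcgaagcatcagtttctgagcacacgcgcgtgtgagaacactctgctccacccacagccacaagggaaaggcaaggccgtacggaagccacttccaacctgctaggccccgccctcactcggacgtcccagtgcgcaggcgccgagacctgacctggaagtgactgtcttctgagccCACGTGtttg
Tsr1, chr11:74897830-74898129, plus strand: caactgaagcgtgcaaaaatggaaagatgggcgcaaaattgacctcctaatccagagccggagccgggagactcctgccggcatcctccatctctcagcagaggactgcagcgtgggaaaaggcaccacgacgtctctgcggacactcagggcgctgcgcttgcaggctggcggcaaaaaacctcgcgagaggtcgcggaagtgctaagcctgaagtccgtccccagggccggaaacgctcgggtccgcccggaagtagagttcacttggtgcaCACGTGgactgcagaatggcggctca

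In each of these the motif lay close to the annotated start. Its first base was 20, 24 and 60 bases upstream of the start in Utp18, Apex1 and Nop2, and it was base 38, 3, 18, 41 and 25 from the start in Utp20, Pes1, Wdr43, Mybbp1a and Tsr1. Apex1 held 3 copies, the other two at bases 1 and 22. The median difference was -0.66 over the 8 genes with CACGTG and -0.53 over the 23 without, with ranges of -0.94 to -0.34 and -0.72 to 0.02 that overlap widely.

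Other genes of the same pathway, in lists that share no gene with the set, had medians on the same side of 0. Of 35 measured small subunit processome genes 34 had a negative difference, with a median of -0.56, and 23 were lower and 1 higher at an unadjusted p under 0.05. Of all genes 46.7% had a negative difference, and 8.97% were lower and 8.2% higher at that p. Limma called 1 of the 35, where it called 0.498% of all genes: Ddx47, the gene of an RNA helicase needed for early cleavage, which fell. Ddx47 read 9.75, 9.66, 9.82, 9.60 and 10.08 in Ezh2-null arrays, against 11.16, 10.68, 11.10 and 10.97 in WT arrays, a difference of -1.20 (SE 0.14, limma adjusted p = 0.0104). The groups were well apart and WT replicates 3 and 4 did not lead, and without them the difference was -1.14 (limma adjusted p = 0.0647, no longer called). Its other probe sets stood at 0.23 and -0.24, and neither was called. The first was dim, with means of 4.90 in Ezh2-null and 4.67 in WT arrays (log2), and may miss a change. The second had means of 9.57 and 9.81. Krr1, another processome gene, stood against the list at 0.25 (limma adjusted p = 0.252), with every Ezh2-null array above every WT array, and Bms1 at -0.10. The list's median without WT replicates 3 and 4 was -0.23.

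For large subunit assembly 31 of 32 genes had a negative difference, where 46.7% of all genes did, with a median of -0.31. At an unadjusted p under 0.05, 9 of the 32 were lower, where 8.97% of all genes were. Rrp15 stood at -0.94 and Brix1 at -0.67, with no overlap between the genotypes in either (limma adjusted p = 0.0788 and 0.105), and Ddx24 and Senp3 at 0.03 and -0.01. All 11 snoRNP assembly genes were negative, with a median of -0.54, Naf1 at -0.97 and Znhit3 at -0.68 (limma adjusted p = 0.122 and 0.132), and Nop10 and Shq1 nearest to 0 at -0.11 and -0.18. Of 14 further RNA polymerase I genes 12 were negative, with a median of -0.32, Polr1e at -0.89 and Polr1c at -0.49 (limma adjusted p = 0.0819 and 0.164), and the nucleolar remodelling gene Baz2a at 0.24 and Taf1c at 0.01. Of 13 genes of the RNA exosome, which trims ribosomal RNA precursors, 12 were negative, with a median of -0.27, Exosc9 at -0.48 and Exosc7 at -0.41 (limma adjusted p = 0.126 and 0.223), and C1d and Skiv2l2 at 0.02 and -0.02. Limma called none of these 4 lists' genes, where it called 0.498% of all genes. Without WT replicates 3 and 4 the medians were -0.07, -0.19, -0.03 and 0.07, in the same order of lists.

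**Figure D4:**
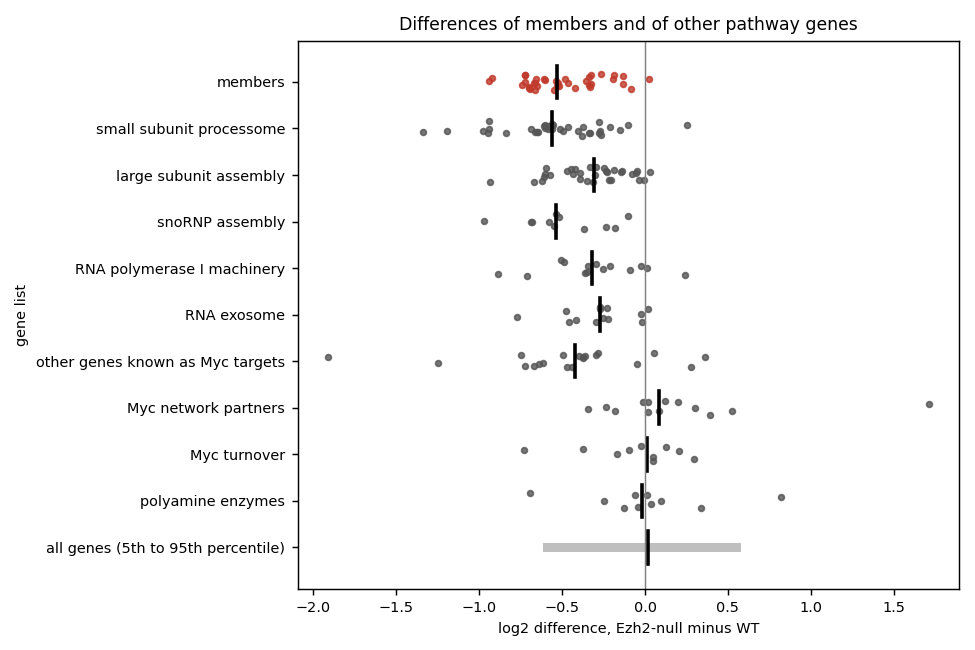
Log2 difference (Ezh2-null minus WT, horizontal axis) of every measured gene of the set and of 9 other lists (points), with the list's median as a black bar and, for all genes, the range from the 5th to the 95th percentile in grey. The medians of the ribosome lists lie between -0.56 and -0.27, and those of Myc network partners, Myc turnover and polyamine enzymes lie near 0, at 0.08, 0.01 and -0.02.

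Of 20 other genes known as Myc targets 17 had a negative difference, with a median of -0.42, and 11 were lower and 1 higher at an unadjusted p under 0.05. Of all genes 46.7% had a negative difference, and 8.97% were lower and 8.2% higher at that p. Limma called 1 of the 20, where it called 0.498% of all genes: Cad, the gene of the enzyme that starts pyrimidine synthesis, which fell. Cad read 7.97, 7.91, 7.83, 7.73 and 7.92 in Ezh2-null arrays, against 10.75, 9.58, 9.13 and 9.68 in WT arrays, a difference of -1.91 (SE 0.27, limma adjusted p = 0.0213), or 26.6% of the WT level. WT replicate 1 was its highest array and replicate 3 its lowest WT array, unlike most of the set, and its difference was -2.29 without WT replicates 3 and 4 (limma adjusted p = 0.0209). Leaving out Ezh2-null replicate 1, 2, 3 or 4 or WT replicate 4 ended the call (limma adjusted p of 0.0608, 0.0612, 0.0568, 0.0598 and 0.0713). Its other probe sets stood at -0.78 and -1.55. Against the list's direction stood the cyclin gene Ccnd2 at 0.36 and the translation inhibitor gene Eif4ebp1 at 0.28 (limma adjusted p = 0.659 and 0.280).

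The partners and competitors of Myc did not share the direction. Of 13 measured genes 4 had a negative difference, the median was 0.08, and limma called 0, with 0 lower and 1 higher at an unadjusted p under 0.05. Of all genes 46.7% had a negative difference, and 8.97% were lower and 8.2% higher at that p. The gene furthest from 0 was Mycn, the paralogue of Myc, which on its brightest probe set read 14.47, 14.25, 11.89, 13.74 and 12.56 in Ezh2-null arrays, against 12.02, 12.21, 11.003 and 11.44 in WT arrays. Ezh2-null replicates 1, 2 and 4 stood far above all WT arrays and Ezh2-null replicate 3 lay among them. The difference of 1.71 (SE 0.52) did not pass (limma adjusted p = 0.147), and was 1.27 without WT replicates 3 and 4. The other probe sets of Mycn stood at 0.01 and 0.08. They were far dimmer, with Ezh2-null means of 5.13 and 8.67 (log2) against 13.38 on the brightest. The first may be too dim to show a change, and the second did not show one. Mxi1, which encodes a competitor for Max, stood at 0.39, the Myc-binding protein gene Mycbp at -0.34 and the coactivator gene Trrap at -0.23 (limma adjusted p = 0.314, 0.371 and 0.484).

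Markers of dividing cells lay on the same side of 0 as the set. All 14 measured had a negative difference, where 46.7% of all genes did, with a median of -0.58. At an unadjusted p under 0.05, 11 of the 14 were lower, where 8.97% of all genes were, and limma called 0. In 8 of the 14 every Ezh2-null array lay below every WT array. That is 57.1% of these markers, against 24.3% of the set and 2.87% of all genes. The summed linear intensity of these markers was 22636 to 28764 on Ezh2-null arrays and 31465 to 37485 on WT arrays. Without WT replicates 3 and 4 their median was -0.35. Markers of neutrophils lay on the other side: all 8 measured had a positive difference, as did 11021 of all 20680 genes, with a median of 0.84. Of these 8 markers 3 were higher at an unadjusted p under 0.05, where 8.2% of all genes were, and limma called 0. Their summed intensity was 75917 to 126942 on Ezh2-null arrays and 28435 to 102252 on WT arrays, with the lowest sums, 28435 and 47249, on WT replicates 3 and 4, and without these the median was 0.05. Of 8 eosinophil, basophil and mast cell markers, 6 had a positive difference, with a median of 0.86, and 0.63 without WT replicates 3 and 4. At an unadjusted p under 0.05, 4 of the 8 were higher, where 8.2% of all genes were. In 4, Cpa3, Prg2, Prg3 and Gata2, every Ezh2-null array lay above every WT array, as in 626 of all 20680 genes. Their list's summed intensity was 16139 on Ezh2-null replicate 3, 1875 to 3256 on the other Ezh2-null arrays and 807 to 1068 on WT arrays. The part of any of these markers in the values of the set was not tested.

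The summed levels of the remaining marker lists overlapped between the genotypes, although such sums follow the brightest genes and single markers did not all overlap. Ccr2 and Cd68, of the monocyte and macrophage list, lay lower in every Ezh2-null than in every WT array, with differences of -1.52 and -0.51 (limma adjusted p = 0.0681 and 0.144). Gp9, of the megakaryocyte list, lay higher in every Ezh2-null array, with a difference of 0.54 (limma adjusted p = 0.0659). Their part in the values of the set was not tested. The summed intensity was 9118 to 13463 on Ezh2-null and 11197 to 14185 on WT arrays for 8 monocyte and macrophage markers, and 777 to 856 on Ezh2-null and 579 to 814 on WT arrays for 5 B cell markers. It was 800 to 1022 and 676 to 970 for 7 T and NK cell markers, 702 to 878 and 653 to 1078 for 7 erythroid markers, 916 to 1077 and 690 to 1227 for 6 megakaryocyte markers, and 727 to 846 and 591 to 801 for 6 stromal and endothelial markers, each with the Ezh2-null range first.

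**Figure D5:**
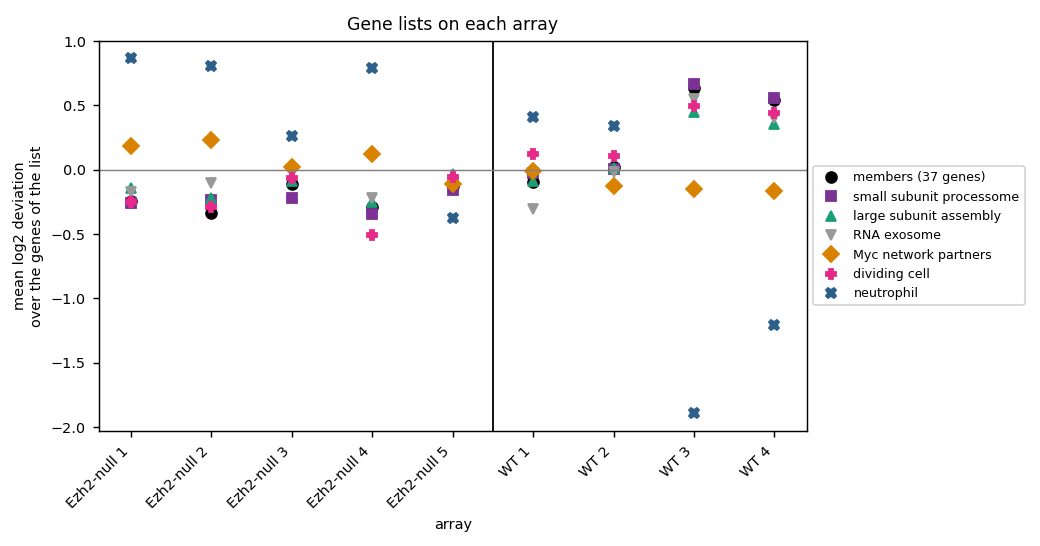
Mean log2 deviation from each gene's mean over the 9 arrays (vertical axis) of the 37 genes and of 6 other lists on each array, Ezh2-null left of the black line and WT right. The set, the ribosome assembly lists and the dividing cell markers are highest on WT replicates 3 and 4, where the neutrophil markers are lowest, at -1.89 and -1.21.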

How the data were processed

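RNA of sorted GFP+ YFP+ leukaemic marrow cells was amplified, labelled with biotin and hybridised, per the labels' protocols, on 9 arrays (5 Ezh2-null, 4 WT). The deposited values are intensities on a linear scale that the authors made with RMA, per the submitters' processing notes (no version given), for 45101 probe sets. A second deposited table holds intensities that were batch-adjusted with another series, per the file headers. It gave the gene symbols and an alternative, for which 2 values were set to 1, while 7 columns that belong to other samples stayed unused. Intensities were taken to log2. Control probe sets (64), those with no gene (5820) and those with several genes (1399) were left out, and the probe set with the highest mean represented each of 20680 genes.

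Genotypes were compared with limma 3.58.1 (lmFit, eBayes) in R 4.3.3, with no covariate, and p-values were Benjamini-Hochberg adjusted over all 20680 genes at a threshold of 0.05. The script was tested on simulated data. The members, lists and marker sets were chosen with earlier results of these data known. Values per array are given for called members, Myc, the 10 furthest lower and the 3 furthest higher. Chosen after their values were seen, they are also given for Polr1a, whose genotypes overlap, and for further members whose genotypes do not. Of each pathway list the called genes or the 2 with the smallest p, and the 2 furthest against its direction, are named, except for Myc turnover, whose single genes are not reported here. Arrays give no read depth, so their number limits the precision. No source used here gives the platform, scan dates or batches. Same-numbered arrays of the 2 genotypes had deviations correlated at -0.045, 0.086, 0.127 and -0.144. For differently numbered arrays the correlations ran from -0.127 to 0.148. These values show no pairing by number, but so few of them cannot exclude a shared origin or batch. Alternatives changed the table, probe set rule, normalization, dim gene filter (40th percentile), pseudocount (16), variance model, array weights, replicate block and arrays.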

Additional observations from a re-analysis of the deposited data

Results flagged for a closer look

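Among 74 sets of values of the 37 genes within a genotype, 4 held an array that stood far from the rest, by Dixon's ratio of its gap to the nearest value over the whole range. Chance gives about 5% of such sets. Mybbp1a read 10.32 in Ezh2-null replicate 1, where the nearest Ezh2-null array read 10.95 (ratio 0.737). Gnl3 and Noc4l were both low in Ezh2-null replicate 2, Gnl3 at 8.68 against 9.29 in the nearest array (ratio 0.789) and Noc4l at 9.92 against 10.88 (ratio 0.809). Rrs1 read 11.4 in WT replicate 1, where the nearest WT array read 12.24 (ratio 0.877).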

How the results depend on the processing

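The median of the 37 genes was below 0 in every alternative run, from -0.65 to -0.19, and from -0.64 to -0.41 with 1 array left out. Without WT replicates 3 and 4, the median was -0.19 instead of -0.53, 6 genes of the set instead of 21 had an unadjusted p under 0.05, limma called 61 genes in all and 1 in the pathway lists, Myc stood at 0.23, and Ezh2 at -0.99 (adjusted p 0.149). Limma called 103 genes in all, and 202 in the batch-adjusted table, 162 over single probe sets, 1007 with array weights, 488 at an adjusted p under 0.1, and 17 to 330 with 1 array left out. Of the 37 genes it called 0, but 12 with array weights, which gave WT replicates 1 and 2 weights of 0.417 and 0.504 and every other array over 1, 1 (Npm1, adjusted p 0.0493) with an intensity trend and robust variance, 3 at an adjusted p under 0.1, and 0 to 4 with 1 array left out. The highest were 3 without WT replicate 1 (Apex1, Utp18, Nop16) and 4 without WT replicate 2 (Nhp2, Utp20, Wdr43, Nop2). With 1 array left out, 13 to 29 of the 37 had an unadjusted p under 0.05, the lowest without WT replicate 3. In the same settings 9 to 16 did not overlap, with 16 without WT replicate 1 and 15 without WT replicate 2. Fewer arrays separate more easily by chance, and the share of all genes without overlap is not given for these settings. The rise in genes without overlap can therefore not be judged. The pathway lists held 2 called genes, 4 in the batch-adjusted table, 29 with array weights, 8 at an adjusted p under 0.1 and 1 to 10 with 1 array left out. With the replicate block, the lists held 4 called genes, with Mycn (1.92, adjusted p 0.043) and Smox (0.95, 0.046) among them, and Ezh2 stood at -1.26 (adjusted p 0.0815), and no gene of the set was called. With 1 array left out, Ezh2 ran from -1.53 to -1.17 and lost its call in 6 cases (adjusted p 0.0748 to 0.103), and Myc ran from -0.352 to 0.0456. Ddx47 lost its call as the mean of its probe sets, the dim one included (-0.40, adjusted p 0.0814). Smox was also called with array weights (adjusted p 0.0416), and Dhps with array weights (0.0356) and without WT replicate 2 (0.0454). The cause of these shifts was not tested.

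Signs that turned belonged to values that limma did not call. Odc1 stood at -0.0205 in the batch-adjusted table, -0.0041 centred on array medians and -0.0711 with array weights. C1d stood at -0.0905, -0.0085 and -0.075 in the same settings and at -0.267 as a mean of probe sets. As means of probe sets, Ddx24 stood at -0.0493 and Skiv2l2 at 0.0411. With quantile normalization, Senp3 stood at 0.0624 and Skiv2l2 at 0.0579. Taf1c stood at -0.0138 centred on medians and -0.0078 with array weights, and Ddx24 at -0.099 with array weights. Without WT replicates 3 and 4, the genes of the set that turned were Nolc1 (0.0158), Ddx21 (0.125), Polr1b (0.108), Rrp9 (0.271), Tsr1 (0.282), Rrs1 (0.124) and Nip7 (0.047), besides Myc. Of other genes these were Baz2a (-0.0533), Bms1 (0.101), Senp3 (0.179), Nop10 (0.36), Skiv2l2 (0.458) and Ccnd2 (-0.224). With 1 array left out, the ranges that crossed 0 were -0.0912 to 0.15 for Odc1, -0.304 to 0.0343 for Rrp9, -0.117 to 0.0687 for C1d, -0.28 to 0.167 for Skiv2l2, -0.104 to 0.0926 for Senp3, -0.0608 to 0.0964 for Taf1c, -0.253 to 0.155 for Ddx24 and -0.32 to 0.0602 for Nop10. Overlap was not recomputed under the block, weights or trend settings or over single probe sets, nor medians over single probe sets. All 37 genes lay above the dim filter, and compression of bright signals was not tested.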

Other observations

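Polyamine enzymes, to which Odc1 and Srm of the set belong, lay on both sides of 0. Of 10 others measured, 5 had a negative difference and the median was -0.02, with 0 called by limma and 1 lower and 2 higher at an unadjusted p under 0.05. Of all genes 46.7% had a negative difference, and 8.97% were lower and 8.2% higher at that p. Dhps, which starts the spermidine-dependent modification of a translation factor, read 9.56, 9.84, 9.48, 9.46 and 9.95 in Ezh2-null arrays, against 10.46, 10.02, 10.64 and 10.28 in WT arrays. Its groups did not overlap, and the difference was -0.69 (SE 0.16, limma adjusted p = 0.0825). Smox, which oxidises spermine, read 9.002, 9.20, 8.59, 8.64 and 8.23 in Ezh2-null arrays, against 8.26, 8.23, 7.55 and 7.60 in WT arrays, a difference of 0.82 (SE 0.23, limma adjusted p = 0.126). Sat1, which acetylates polyamines for breakdown and export, stood at 0.34 (SE 0.12, limma adjusted p = 0.184).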
